A study of Mus musculus with 10 samples.

Results

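The lipid droplet stores triglyceride and cholesteryl ester inside cells, and 10 genes that act on it or feed it were examined in mouse liver with and without the nuclear receptor Rev-erb alpha. They were the perilipin coat genes Plin2, Plin3, Plin4 and Plin5, the fat-specific droplet gene Cidec, the lipase inhibitor G0s2, the lipases Pnpla2, Lipe and Mgll, and the fatty acid translocase Cd36. The genes were taken by symbol from the array annotation. Each had 1 probe set with that symbol alone, so 10 of the 19933 genes tested belong to the group, and all 10 read above the lower quartile of every array. Nr1d1 KO livers (5 mice, genotype Nr1d1-/-) were compared with WT livers (5 mice). All mice were C57Bl/6 males of 10 to 12 weeks on normal chow under 12 h light and 12 h dark, and were killed at ZT10, 10 h into the light phase. The KO mice came from a line crossed back to C57Bl/6 over 7 or more generations, whereas the WT mice were purchased, so genotype and origin cannot be told apart. Whole liver RNA was hybridized to Affymetrix Mouse Gene 1.0 ST arrays, 1 mouse per array, and in such RNA a change in the number of cells of a type and a change in RNA per cell cannot be told apart.

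In a liver cell, perilipins coat the droplet surface and control the access of lipases. Triglyceride is broken down in steps, by ATGL (the product of Pnpla2), hormone-sensitive lipase (Lipe) and monoglyceride lipase (Mgll), and G0S2 binds and inhibits ATGL. CD36 carries long-chain fatty acids across the plasma membrane and is low in normal hepatocytes, but is raised in fatty liver. Several of these genes are targets of PPAR receptors, which bind repeats of the same AGGTCA half-site that Rev-erb alpha recognises singly.

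The probe set of the deleted gene did not read lower in KO. Nr1d1 read 9.29, 9.77, 10.54, 9.95 and 10.04 in KO livers, against 10.00, 9.80, 9.60, 9.85 and 9.64 in WT livers (log2 intensity, as are all levels below). The labels do not say whether these probes lie in the deleted part; if they do not, the reading is no check of the genotype. Arntl, a clock gene that Rev-erb alpha represses, lay between 9.12 and 9.82 in KO livers and between 6.93 and 7.54 in WT livers, without overlap. The array medians lay between 7.29 and 7.37 in KO and between 7.28 and 7.36 in WT.

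Cd36, Plin5 and Plin4 rose in KO livers, and the sequences before their starts are shown because these are the 3 genes that passed the test. They are the 250 bases before the RefSeq gene start in GRCm38.p6, 5′ to 3′ on the gene's own strand, which is the minus strand for each. Capitals mark the half-site AGGTCA, printed as TGACCT where it lies on the opposite strand. The windows are Cd36 at chr5:17835897-17836146, Plin5 at chr17:56117549-56117798 and Plin4 at chr17:56109783-56110032. Plin5 has a second RefSeq start nearby, whose window held no match.
Cd36: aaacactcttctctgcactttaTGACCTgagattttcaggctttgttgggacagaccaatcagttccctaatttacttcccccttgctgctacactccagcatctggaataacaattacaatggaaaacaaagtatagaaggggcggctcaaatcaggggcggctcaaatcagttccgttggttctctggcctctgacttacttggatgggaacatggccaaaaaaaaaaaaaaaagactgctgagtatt
Plin5: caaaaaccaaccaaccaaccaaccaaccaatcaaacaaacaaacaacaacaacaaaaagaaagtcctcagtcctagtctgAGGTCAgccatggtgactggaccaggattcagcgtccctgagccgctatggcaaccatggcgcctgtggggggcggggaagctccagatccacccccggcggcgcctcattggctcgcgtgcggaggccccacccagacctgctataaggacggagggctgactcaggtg
Plin4: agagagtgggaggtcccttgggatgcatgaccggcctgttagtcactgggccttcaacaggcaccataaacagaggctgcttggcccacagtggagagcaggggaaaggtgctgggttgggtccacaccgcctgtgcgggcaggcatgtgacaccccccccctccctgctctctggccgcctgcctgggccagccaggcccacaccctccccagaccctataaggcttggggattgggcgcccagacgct

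The match in Cd36 began 228 bases before the start, on the opposite strand, and that in Plin5 170 bases before the start, on the gene's strand. Plin4 held none. All 10 genes matched a RefSeq promoter, in 14 windows, and of the others only Plin2 held the half-site. Counted by window over both strands, 3 of these 14 windows held AGGTCA, against 14.0% of 32851 RefSeq windows of this length. The longer TAGGTCA, which contains the half-site and lies nearer to the element Rev-erb alpha prefers, was found in Plin2 alone among the 10 genes and in 2.23% of all windows. The spaced repeat AGGTCANAGGTCA, which also contains the half-site and is bound by PPAR receptors, was found in none of the 10 genes and in 0.0335% of all windows. A match is a description of these letters and says nothing of binding.

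Among the 10 genes, 3 rose, 0 fell and 7 did not pass the test. The test was limma across all genes, two-sided, with a Benjamini-Hochberg adjusted p under 0.05, and it called 5.61% of all genes, 3.17% as higher in KO. In the same 3 genes every KO array lay above all WT arrays, as it did in 3.99% of all genes. The difference, KO minus WT, was above 0 in 9 of the 10, with a median of 0.27, while over all genes tested 54.1% lay above 0 and the median was 0.01. At an unadjusted p under 0.05, 5 of the 10 were higher and 0 lower, the added ones being Plin2 and Mgll, while 17.4% of all genes passed at that level in either direction and 8.97% as higher. The 10 genes were chosen with earlier results of these data known, so these counts are a description of the group.

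**Figure D1:**
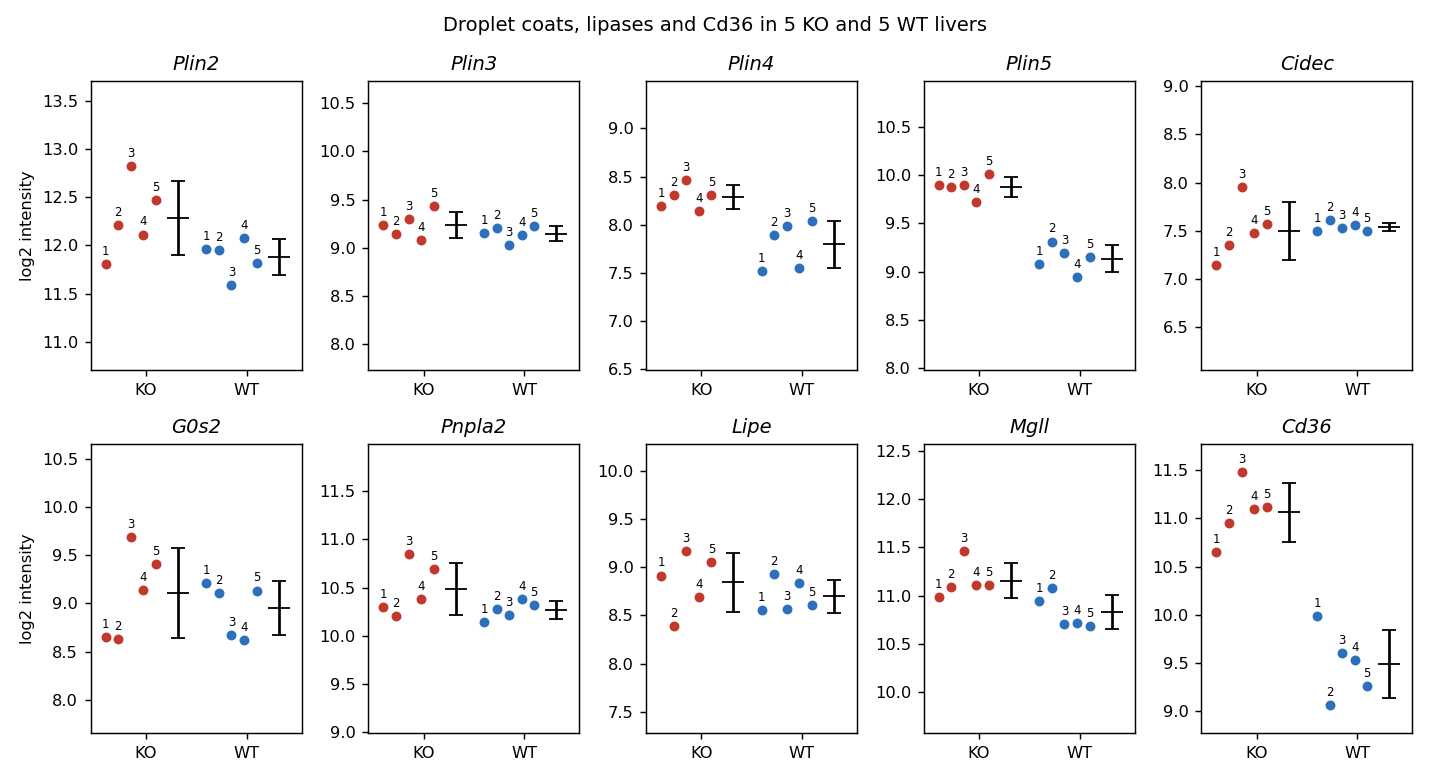
Log2 intensity of each of the 10 genes in 5 KO (red, left) and 5 WT (blue, right) livers, 1 point per array with its replicate number, and the mean ± SD beside each group. Every panel spans 3 log2 units; KO and WT points are fully separate in Plin4, Plin5 and Cd36 and overlap in the other 7 genes.

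Cd36 showed the largest change of the group. It read 10.65, 10.95, 11.49, 11.10 and 11.12 in KO livers, against 9.99, 9.06, 9.60, 9.53 and 9.26 in WT livers. The groups did not overlap, and WT replicate 1 was the WT liver nearest to the KO range. The mean was 11.06 ± 0.30 in KO and 9.49 ± 0.35 in WT (SD, n = 5 each), 2.97-fold higher in KO, with a log2 difference of 1.57 and SE 0.17 (limma adjusted p = 0.000194). The mean of Cd36 was above that of 80.1% of all genes tested in WT and of 93.7% in KO. Only 22 of the 19933 genes had a larger difference upward. The difference of Cd36 lay between 1.46 and 1.70 under all 18 alternative settings and passed in each.

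Among the coat genes, Plin5 and Plin4 rose, while Plin2, Plin3 and Cidec did not pass. Plin5, the perilipin of oxidative tissues that ties droplets to mitochondria, read 9.90, 9.87, 9.90, 9.72 and 10.01 in KO livers, against 9.07, 9.31, 9.20, 8.94 and 9.15 in WT livers. The groups were separate and both were narrow. The mean was 9.88 ± 0.11 in KO and 9.13 ± 0.14 in WT (SD, n = 5 each), 1.68-fold higher in KO, with a log2 difference of 0.75 and SE 0.072 (limma adjusted p = 8.9e-05). It passed in all 18 alternative settings.

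Plin4, a perilipin best known from adipocytes and muscle, read 8.20, 8.31, 8.47, 8.14 and 8.31 in KO livers, against 7.52, 7.89, 7.99, 7.55 and 8.04 in WT livers. The lowest KO liver lay just above the highest WT liver, and the WT livers were the more spread group. The difference was 0.49 with SE 0.11, or 1.40-fold (limma adjusted p = 0.0172). Without the 3 arrays of widest interquartile range (WT replicate 1 and KO replicates 4 and 5) the difference was 0.46 and the call was lost (limma adjusted p = 0.0880).

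Plin2, the main perilipin of hepatocytes, read 11.80, 12.21, 12.82, 12.11 and 12.47 in KO livers, against 11.96, 11.95, 11.59, 12.08 and 11.82 in WT livers. Of the KO livers 4 lay above all WT livers, and KO replicate 1 lay within the WT range. The difference was 0.41 (SE 0.16, 95% interval 0.06 to 0.75, limma adjusted p = 0.195). Plin3, the widely expressed perilipin, lay between 9.08 and 9.43 in KO livers and between 9.03 and 9.22 in WT livers, a difference of 0.09 (95% interval -0.05 to 0.23, limma adjusted p = 0.586). The intervals are for single genes and are not adjusted for the number of genes.

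Cidec, which promotes the fusion of droplets, differed between the genotypes in spread and little in mean. It read 7.15, 7.35, 7.96, 7.48 and 7.57 in KO livers, against 7.50, 7.61, 7.53, 7.56 and 7.50 in WT livers. The WT livers fell inside the range of the KO livers. The SD was 0.30 in KO and 0.045 in WT (n = 5 each), a difference in spread that was not tested, and the difference in mean was -0.04 (95% interval -0.29 to 0.21, limma adjusted p = 0.935). The sign of that mean difference turned without KO replicate 1 (0.05).

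None of the 3 lipases passed in limma, and at an unadjusted p under 0.05 Mgll alone did. Mgll, which releases the last fatty acid from monoglyceride, came nearest and read 10.99, 11.09, 11.47, 11.11 and 11.11 in KO livers, against 10.94, 11.08, 10.71, 10.72 and 10.68 in WT livers. Of the KO livers 4 lay above all WT livers, while KO replicate 1 lay below WT replicate 2. The difference was 0.33 (SE 0.098, 95% interval 0.11 to 0.54, limma adjusted p = 0.0791), and it passed without WT replicate 2 (limma adjusted p = 0.0375). Pnpla2, the gene of the first and rate-limiting lipase, lay between 10.21 and 10.84 in KO livers and between 10.14 and 10.38 in WT livers. Its difference was 0.22 (95% interval -0.02 to 0.46, limma adjusted p = 0.345). Lipe lay between 8.39 and 9.17 in KO livers and between 8.56 and 8.93 in WT livers, so that the WT livers fell inside the KO range, with a difference of 0.15 (95% interval -0.14 to 0.43, limma adjusted p = 0.688).

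G0s2, the inhibitor of the first lipase, had the widest KO spread of the 10 genes. It lay between 8.63 and 9.69 in KO livers and between 8.62 and 9.21 in WT livers, and the groups overlapped. The difference was 0.16 (SE 0.20, 95% interval -0.28 to 0.59, limma adjusted p = 0.801).

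**Figure D2:**
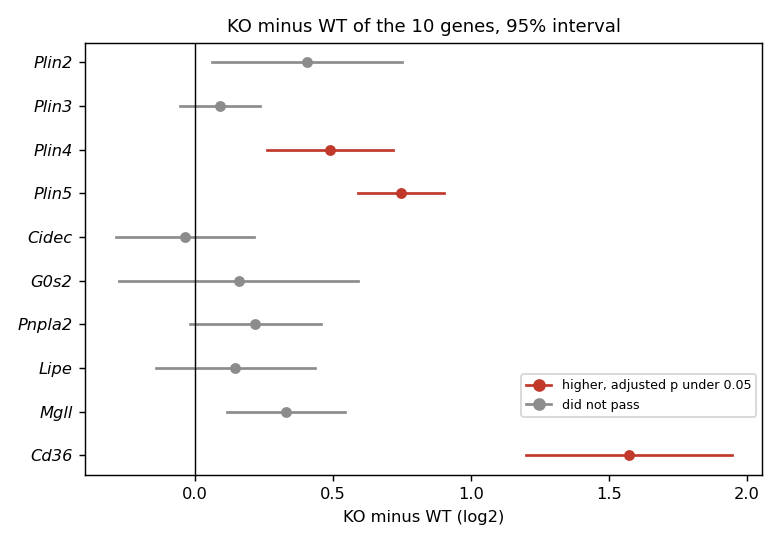
Difference KO minus WT (log2) of the 10 genes with its 95% interval from limma, not adjusted for the number of genes; red genes rose at an adjusted p under 0.05 and grey genes did not pass. Cd36 lies at 1.57, Plin5 at 0.75 and Plin4 at 0.49, and the intervals of Plin2 and Mgll exclude 0 although neither passed after adjustment.

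The KO livers did not all carry the higher readings alike. KO replicate 3 read highest of the KO livers in 8 of the 10 genes, and KO replicate 5 in the other 2, Plin3 and Plin5. Over all genes tested, KO replicate 3 was the highest KO liver in 24.4% and KO replicate 5 in 22%. The median of the 10 genes, each taken against its WT mean, was 0.13 in KO replicate 1, 0.13 in KO replicate 2, 0.65 in KO replicate 3, 0.21 in KO replicate 4 and 0.45 in KO replicate 5. Among WT livers it ranged from -0.08 to 0.09, around 0 because each gene was set against the mean of these same livers. The SD was larger in KO than in WT in 7 of the 10 genes, against 51.3% of all genes.

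The array of KO replicate 3 had the narrowest interquartile range of log2 values of all 10 arrays, at 2.80, and that of KO replicate 5 the widest, at 2.99. KO replicate 3 also gave the highest Nr1d1 reading, 10.54. Without KO replicate 3 the same 3 genes passed, with differences of 1.47 for Cd36, 0.74 for Plin5 and 0.44 for Plin4, the last at a limma adjusted p of 0.0463. Without it, the difference of G0s2 was 0.01, that of Lipe 0.06, that of Pnpla2 0.13 and that of Plin2 0.27. Cd36, Plin5, Plin4 and Mgll lay above their WT mean in each of the 5 KO livers.

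**Figure D3:**
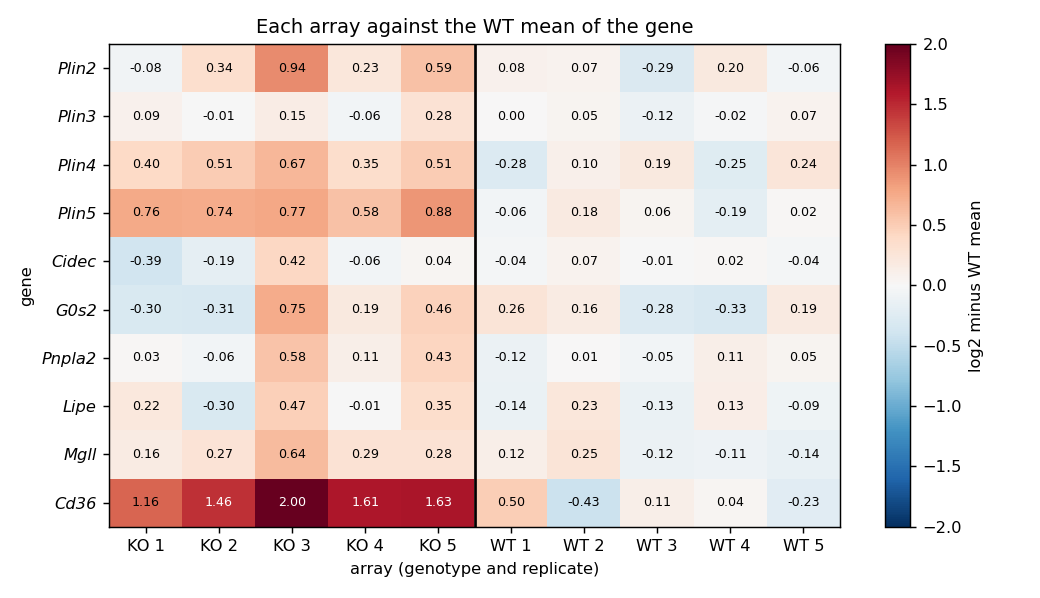
Each gene's log2 reading on each array minus its WT mean, KO arrays on the left of the black line and WT arrays on the right; red is above and blue below the WT mean. Cd36, Plin4, Plin5 and Mgll are above the WT mean in all 5 KO columns, and the column of KO replicate 3 holds the highest KO value in 8 of 10 rows.

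Plin4 and Plin5 are next to each other on chromosome 17, with Plin3 9 genes away, so the genes of that stretch were set beside them. Between Plin5 and Plin3, all 9 genes in the RefSeq order were measured and 0 of them passed in limma, with differences from -0.20 to 0.34. Over all genes 5.61% passed, so 0 of 9 genes is near that share. At an unadjusted p under 0.05, 3 of these 9 genes passed, Tnfaip8l1 (0.34), Dpp9 (0.28) and Mydgf (-0.20), while 17.4% of all genes did. Lrg1, which encodes a secreted glycoprotein and directly follows Plin5, had a difference of -0.07 (limma adjusted p = 0.826). On the other side of Plin4, Hdgfl2 was at 0.06, Ubxn6 at -0.01, Chaf1a at -0.09 and Sh3gl1 at -0.02, and none of these 4 passed. Beyond Plin3, the phosphatase gene Ptprs rose by 0.23 (limma adjusted p = 0.0258) and lost its call when any of 6 arrays was left out (limma adjusted p up to 0.0645), while Arrdc5 (-0.05), Uhrf1 (0.09) and Kdm4b (-0.08) did not pass.

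**Figure D4:**
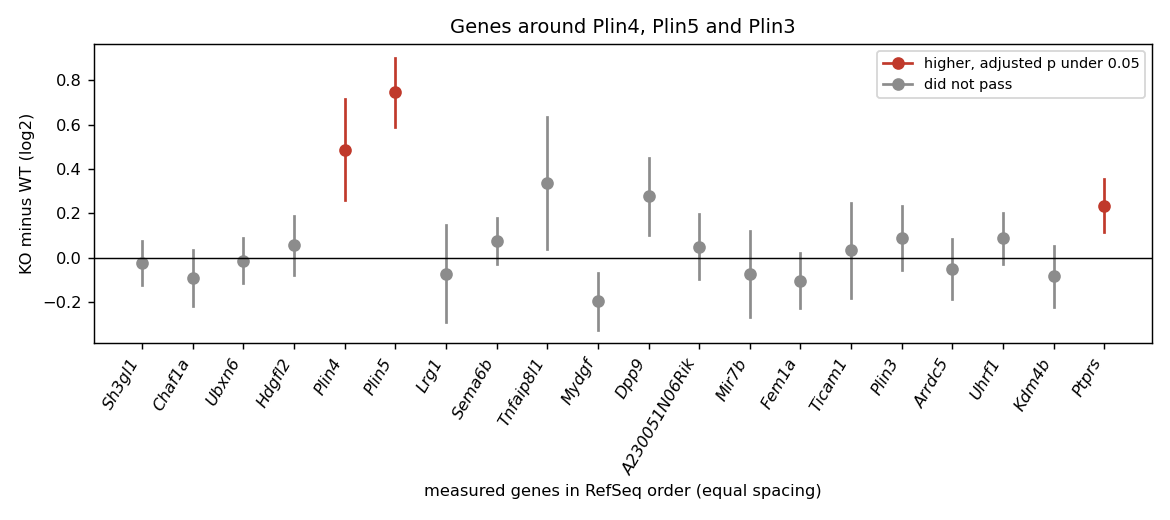
Difference KO minus WT (log2) with its 95% interval for the measured genes from Sh3gl1 to Ptprs, in the order of the RefSeq annotation and at equal spacing; red genes rose at an adjusted p under 0.05 and grey genes did not pass. Plin4 (0.49) and Plin5 (0.75) stand next to each other and above the rest, of which Tnfaip8l1 (0.34), Dpp9 (0.28) and Ptprs (0.23) are the next highest and Mydgf (-0.20) is the lowest.

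Other genes of droplet formation and lipolysis mostly did not pass. Of 27 measured genes of a list of 29, 3 rose, 0 fell and 24 did not pass in limma, 11.1% against 5.61% of all genes, with a median difference of 0.03. At an unadjusted p under 0.05 in limma, 5 were higher and 1 lower, 22.2% against 17.4% of all genes. For higher alone it was 18.5% against 8.97%. The added ones were the carboxylesterase Ces1g (0.44, groups without overlap, limma adjusted p = 0.0509), Abhd6 (0.21) and Ldah (-0.19). The Ces1 genes are close paralogs that could share signal, so the value of Ces1g is uncertain. Lpl, whose product frees fatty acids from circulating triglyceride, read 9.22, 9.55, 9.66, 9.18 and 8.96 in KO livers, against 8.52, 8.41, 8.19, 8.25 and 8.30 in WT livers. The groups were separate, and the difference was 0.98 (SE 0.12, limma adjusted p = 0.000405). Lipa, the acid lipase of lysosomes, rose by 0.40 (limma adjusted p = 0.0222), and lost its call when any of 4 arrays was left out, or the 3 of widest interquartile range together (limma adjusted p = 0.145). Mogat1, which makes diglyceride from monoglyceride, rose by 0.38 (limma adjusted p = 0.0035), though its 5 WT readings lay below the lower quartile of their arrays and the size of the rise is uncertain.

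The other genes listed as droplet coat or droplet-associated proteins were Plin1, Cidea, Cideb, Hilpda, Hsd17b11 and Hsd17b13. All 6 missed the test in limma, also at an unadjusted p under 0.05. Cidea read below the lower quartile on all 10 arrays, so its miss says little. Plin1, the adipocyte perilipin, lay between 7.27 and 7.44 in KO livers and between 7.17 and 7.50 in WT livers. Abhd5, the coactivator of ATGL, lay between 9.72 and 9.78 in KO livers and between 9.63 and 10.49 in WT livers. WT replicate 2 held that highest reading, and the difference was -0.22 (95% interval -0.49 to 0.05, limma adjusted p = 0.430). The triglyceride synthases Dgat1 and Dgat2 were at 0.04 and 0.01, and neither passed.

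Fatty acid uptake genes and the receptors known to act on droplet genes or Cd36 lay above 0 more often than below it. Ppargc1a, a coactivator gene, was counted with the receptors. Of 19 measured genes of a list of 21, 4 rose, 1 fell and 14 did not pass, 26.3% against 5.61% of all genes. The difference was above 0 in 15 and below 0 in 4, so that 78.9% lay above 0 against 54.1% of all genes. The median was 0.13, against 0.01 over all genes. At an unadjusted p under 0.05 in limma, 9 were higher and 2 lower, 57.9% against 17.4% of all genes in either direction. For higher alone it was 47.4% against 8.97%. Fabp5, a fatty acid binding protein, read 8.09, 8.09, 8.06, 7.68 and 7.73 in KO livers, against 8.67, 8.84, 8.64, 8.59 and 8.91 in WT livers, a separate and lower range. It fell by 0.80 (SE 0.096, limma adjusted p = 0.000406). Fabp2, the intestinal form of these binding proteins, rose by 0.42 (limma adjusted p = 0.0405), and Slc27a2, a very long chain acyl-CoA synthetase that also takes up fatty acids, rose by 0.16 (limma adjusted p = 0.0499).

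Among the receptors, Nr1i3, the xenobiotic receptor CAR, rose by 0.62 and Ppard, the PPAR delta gene, by 0.43 (limma adjusted p = 0.0409 and 0.0421). Pparg and Ppara did not pass. Pparg lay between 8.84 and 9.36 in KO livers and between 9.03 and 9.49 in WT livers, a difference of -0.16 (95% interval -0.41 to 0.09, limma adjusted p = 0.576). Ppara, the main PPAR of hepatocytes, lay between 11.54 and 12.18 in KO livers and between 11.54 and 11.89 in WT livers, a difference of 0.22 (95% interval -0.03 to 0.47, limma adjusted p = 0.377). The calls of Fabp2, Slc27a2, Nr1i3 and Ppard were each lost without any 1 of 7 to 9 arrays, and with arrays centred on their medians Fabp5 alone passed.

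**Figure D5:**
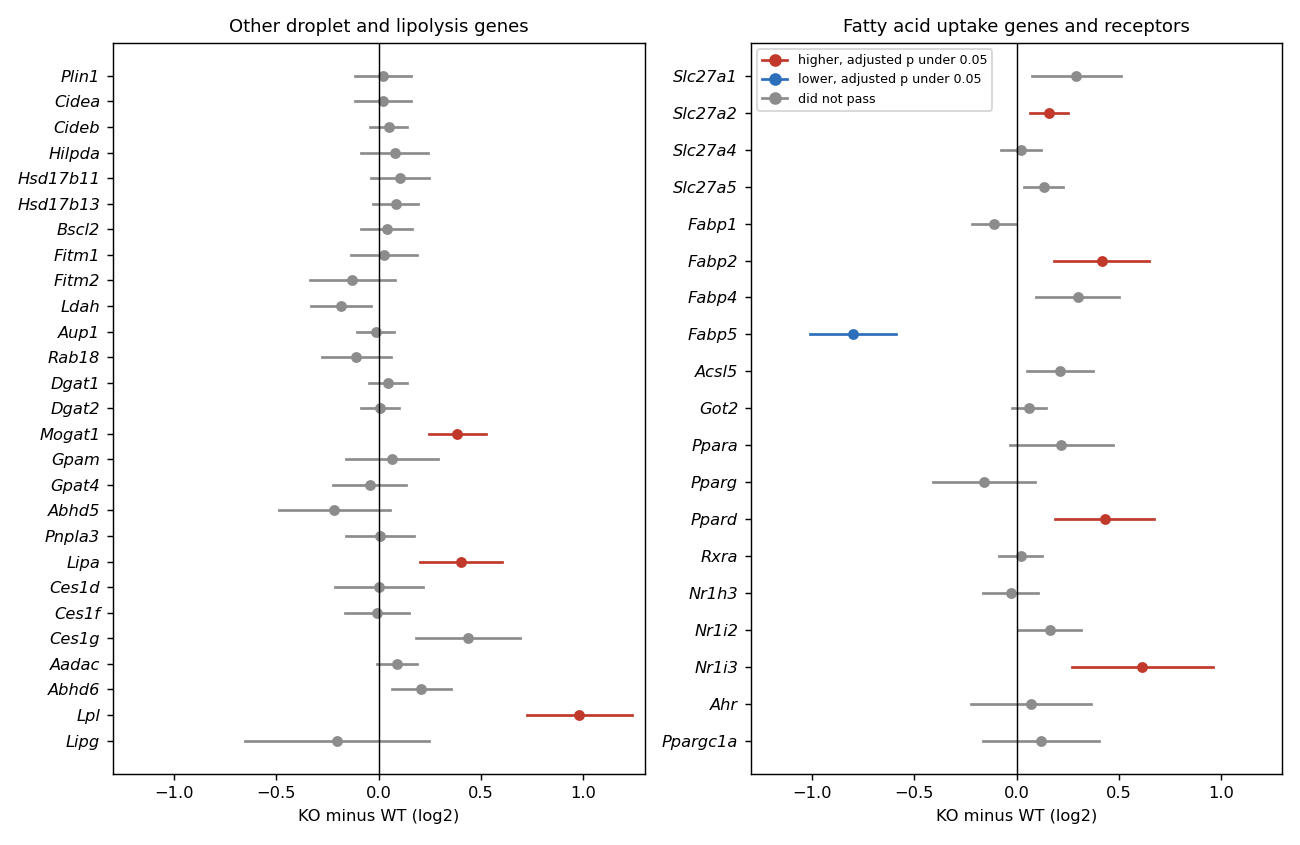
Difference KO minus WT (log2) with its 95% interval for 27 other droplet and lipolysis genes (left) and 19 fatty acid uptake and receptor genes (right); red genes rose and the blue gene fell at an adjusted p under 0.05, and grey genes did not pass. Lpl (0.98) and Fabp5 (-0.80) lie farthest from 0, and most of the others lie within 0.5 of it.

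Several of the 10 genes are also active in other cells that a liver sample can hold, such as adipocytes, macrophages, endothelium and platelets. Of 48 measured markers 2 passed, Lpl and Sox9, which is 4.17% against 5.61% of all genes. At an unadjusted p under 0.05 in limma, 16.7% of the markers passed against 17.4% of all genes. For higher in KO alone it was 14.6% against 8.97%. Of 7 adipocyte markers, Lpl alone passed, and at an unadjusted p under 0.05 Fabp4 also did, at 0.30. Adipoq and Lep, which encode the adipocyte hormones adiponectin and leptin, and the brown fat gene Cidea were dim, below the lower quartile on all 10 arrays. Plin1, Retn, Fabp4 and Lpl lay above it on all 10. The summed intensity of the adipocyte list lay between 1160 and 1510 in KO and between 926 and 1020 in WT, and without Lpl between 659 and 758 in KO and between 622 and 680 in WT.

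For the counts by cell type, the shares over all genes were 8.97% higher in KO at an unadjusted p under 0.05 in limma and 54.1% above 0. Of 7 Kupffer cell markers 0 passed in limma, also unadjusted, with sums from 3550 to 4810 in KO and from 3750 to 5510 in WT. Of 7 endothelial markers 0 passed in limma, though 2 did at an unadjusted p under 0.05, both higher in KO. Of the 7 differences 6 lay above 0 and 1 below, and the sums ran from 6870 to 8640 in KO and from 6410 to 8070 in WT. The sums of these 2 lists overlapped between the genotypes. Of 4 platelet markers 0 passed in limma, though 2 did at an unadjusted p under 0.05, both higher in KO, and all 4 differences lay above 0. The platelet sums ran from 890 to 1340 in KO and from 643 to 917 in WT. Without the chemokine gene Ppbp they ran from 460 to 523 in KO and from 423 to 492 in WT. Of 7 stellate cell markers and 5 skeletal muscle markers 0 passed in limma, and their sums overlapped between the genotypes. At an unadjusted p under 0.05, 1 stellate cell marker was lower in KO and 0 skeletal muscle markers passed. Among 4 cholangiocyte markers Sox9 rose by 0.62 (limma adjusted p = 0.0129), and the sum of the list lay between 710 and 913 in KO and between 592 and 691 in WT, without overlap. Without Sox9 the sum lay between 350 and 401 in KO and between 378 and 424 in WT. The 7 hepatocyte markers did not pass, also unadjusted, with sums from 87700 to 93200 in KO and from 90600 to 94700 in WT. The part of these cells in the readings of the 10 genes was not tested.

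Profiles over the 10 arrays were compared with those of Cd36 and Plin5 by their mean absolute gap, each taken against its own WT mean. Genes with Gm, Rik, LOC, clone, pseudogene or olfactory receptor symbols were left out of this search. The genes most like Cd36 were Ndrg1 (gap 0.22), Insig2, which holds the SREBP factors in the endoplasmic reticulum (0.25), Car14 (0.27), Serpinb1a (0.27) and Slc45a3 (0.28). Their differences lay between 1.42 and 1.68, near the 1.57 of Cd36, as the choice by likeness required. Nearest to Plin5 were Gas7 (gap 0.07), Smagp (0.09), Hacl1 (0.10), Pyroxd2 (0.11) and Slc16a1 (0.11), with differences between 0.63 and 0.72 against 0.75 for Plin5. Hacl1 encodes a peroxisomal enzyme of fatty acid alpha-oxidation, and Slc16a1 a transporter of lactate and ketone bodies.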

How the data were processed

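The authors deposited normalized intensities for 27541 probe sets on 10 arrays, on a linear scale. RMA and Partek are named, without versions, per the submitters' processing notes, and filters before deposit are not given in the sources used here. Groups came from the genotype labels. The values were turned into log2. Of the probe sets, 21631 had 1 gene symbol in the array annotation, 1317 had several and 4593 had none. The probe set with the highest mean stood for each of the 951 genes with more than 1, which left 19933 genes. A list entry without such a probe set was not analysed here. The 2 genotypes were compared with lmFit and eBayes of limma 3.58.1 in R 4.3.3, without covariates, with p-values adjusted over all 19933 genes. Each p-value sets the difference between genotypes against the spread between these mice, which eBayes moderates across genes. The number of arrays limits the precision. How far a reading stands above background is unknown, as no detection calls came with the table.

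The 10 genes, the other gene lists and the rule for named genes were chosen with earlier results of these data known. By that rule, the 10 genes, Nr1d1, Plin1, Abhd5, Pparg, Ppara, called genes of the 2 pathway lists, called markers, the 4 measured genes on each side of the perilipin stretch and the 5 genes most like Cd36 and Plin5 were named. Any other gene was named after its values were seen. Alternatives were averaged probe sets per gene, all probe sets, a filter on dim genes, median centring, repeated quantile normalization, array weights, another eBayes prior, and leaving out arrays. In simulated data of 19933 genes for this comparison, 50 genes were changed at each size. Of changes of 0.25 on the log2 scale 28% were recovered, of 0.5 84%, of 1 96% and of 1.5 100%, and 8.33% of the calls were false. The real comparison called 1119 genes, so these rates need not carry over to it. Promoters came from RefSeq (GRCm38.p6).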

Additional observations from a re-analysis of the deposited data

Results flagged for a closer look

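Mgll in KO replicate 3 read 11.47, while the next KO liver read 11.11. Its gap to the nearest KO liver, as a share of the KO range, was 0.739 against a Dixon critical value of 0.71 for 5 samples. This was the only such reading among the 10 genes in the 2 groups of 5, and chance gives about 1 in 20 groups. Without KO replicate 3 the difference of Mgll was 0.25 (limma adjusted p = 0.148), against 0.33 with it.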

How the results depend on the processing

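Under 18 alternatives, 10 of which left out 1 array, Cd36 and Plin5 passed each time. The number of the 10 genes called stayed at 3, except that it was 4 without WT replicate 2 and 2 without the 3 arrays of widest interquartile range. Of 180 values of these genes, 176 kept direction and call. The call of Plin4 was lost once, that of Mgll was gained once, and the difference of Cidec turned positive without KO replicate 1 or 2 (range without 1 array -0.15 to 0.052). Of 665 values of 37 other named genes, 596 kept both, 58 lost the call, 7 gained it (Ces1g, Fabp4 and Abhd6) and 4 turned sign. The sign turned for Nr1d1 (-0.017 to 0.29 without 1 array), Plin1 (-0.022 to 0.060 without 1 array) and Ubxn6 (-0.033 to 0.0031 without 1 array, 0.0015 with quantile normalization repeated).

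Over all genes, 527 were called without the 3 arrays of widest interquartile range, against 1119 with all arrays, with fewer arrays in the fit. There, 1 marker and 2 uptake and receptor genes passed. With arrays centred on their medians, 1 uptake or receptor gene passed, and without 1 array 1 to 4 did, against 5 with all arrays as deposited. The number of markers called without 1 array was 2 to 4. The cause of these moves was not tested. Other droplet genes called numbered 2 to 4 throughout. No paired analysis was possible because each array is a different mouse and the labels pair no KO mouse with a WT mouse. The replicate numbers only count the mice within a genotype.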
